A study of Sus scrofa with 29 samples.

Results

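Class I molecules of the swine leukocyte antigen (SLA) complex and the proteins that supply them with peptide were followed across arteries and training states in pigs. The members were the array probe sets whose single gene symbol in the platform annotation was SLA-1, SLA-2, SLA-3, SLA-6, SLA-7, SLA-8, B2M, TAP1, PSMB8 or PSMB9. Of the 23999 probe sets tested, 20 met this rule, and they stood for 8 of the 10 symbols, among 6765 genes with a symbol of their own on the array. B2M had 9 probe sets, TAP1 had 3, SLA-6 and SLA-8 had 2 each, and SLA-2, SLA-3, SLA-7 and PSMB8 had 1 each. SLA-1 and PSMB9 had none, and the 5 probe sets that carried several of these symbols at once were left out. Where a gene had several probe sets, they are called set A, B and so on, from the highest to the lowest mean log2 intensity over all arrays, and the plot of all members gives the platform identifier of each.

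The RNA came from cells scraped off the inner wall of the brachial artery (foreleg) and the internal mammary artery (chest wall) of healthy swine, labelled by the submitters as endothelial cells. Exercised pigs ran on a treadmill for 16 to 20 weeks, reaching bouts of 85 min on 5 days a week, and sedentary pigs stayed in their enclosures without exercise. Arteries of exercised pigs were taken about 24 h after the last bout. The arrays made up 7 brachial exercised, 7 brachial sedentary, 8 internal mammary exercised and 7 internal mammary sedentary samples, from 15 pigs of which 14 gave both arteries. Pigs are named by their label identifiers. Their age and sex are not given in the sources used here. The values are intensities on a log2 scale, and only values of the same probe set can be set side by side.

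A class I molecule is a heavy chain held together with beta-2 microglobulin (B2M) and a short peptide, and it shows that peptide at the cell surface to CD8 T cells and natural killer cells. The peptides are cut by the proteasome, in which interferon-inducible subunits such as PSMB8 and PSMB9 can replace the standard ones. They are then carried into the endoplasmic reticulum by the transporter made of TAP1 and TAP2 and loaded with the help of tapasin, calreticulin and other chaperones. In the pig, SLA-1, SLA-2 and SLA-3 are the classical, highly polymorphic heavy chain genes, and SLA-6, SLA-7 and SLA-8 are nonclassical. Endothelial cells express class I at rest and raise it in response to interferon. In the RefSeq gene table for assembly Sscrofa11.1, SLA-8, SLA-7 and SLA-6 follow each other as neighbours, and TAP1 lies between PSMB8 and PSMB9. Heavy chain genes are close relatives, and the array design marks some probe sets as shared: SLA-2 was measured by 1 probe set of the kind that can bind other transcripts (suffix _x_at), and 1 of the SLA-8 probe sets is of the kind common to several transcripts (suffix _s_at). Their signals may therefore hold more than the named gene.

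Array medians lay between 7.13 and 7.28, and in 14 of 14 pigs the brachial array had the lower median. Of 11 endothelial markers 10 were measured, and their mean was 10.97 ± 0.18 in brachial exercised, 10.92 ± 0.19 in brachial sedentary, 10.99 ± 0.08 in internal mammary exercised and 11.10 ± 0.19 in internal mammary sedentary samples (SD). PECAM1, an endothelial junction protein, averaged 13.96 ± 0.14, 13.91 ± 0.11, 14.04 ± 0.05 and 13.96 ± 0.20 in the same groups (SD). VWF, the von Willebrand factor of endothelial storage granules, averaged 7.21 ± 0.67, 6.98 ± 0.91 and 6.94 ± 0.52 in the first 3 of them. In internal mammary sedentary samples it averaged 9.09 ± 2.27 and ran from 6.83 to 12.06. In sedentary pigs it was lower in the brachial artery (-2.10 log2, limma adjusted p = 0.00487). Of the 10 endothelial markers, 2 were called lower in that comparison, VWF among them, 1 was called higher and 7 did not pass. Their median change was 0.002 log2, and over all probe sets 20.5% were called higher and 14.2% lower. For smooth muscle the mean of 6 measured markers of 8 was 12.5 ± 0.76 and 12.7 ± 0.81 in exercised and sedentary brachial samples, against 11.9 ± 0.54 and 12.2 ± 0.48 in exercised and sedentary internal mammary samples (SD). In such bulk samples, fewer cells of a type and less RNA per cell cannot be told apart. Several pigs stood apart in single members: pigs 10_5 and 12_3 in SLA-8, pigs 15_1 and 15_2 in SLA-6, and pig 12_3 in 1 B2M probe set. Training and artery changes of these probe sets are given with and without them.

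**Figure D1:**
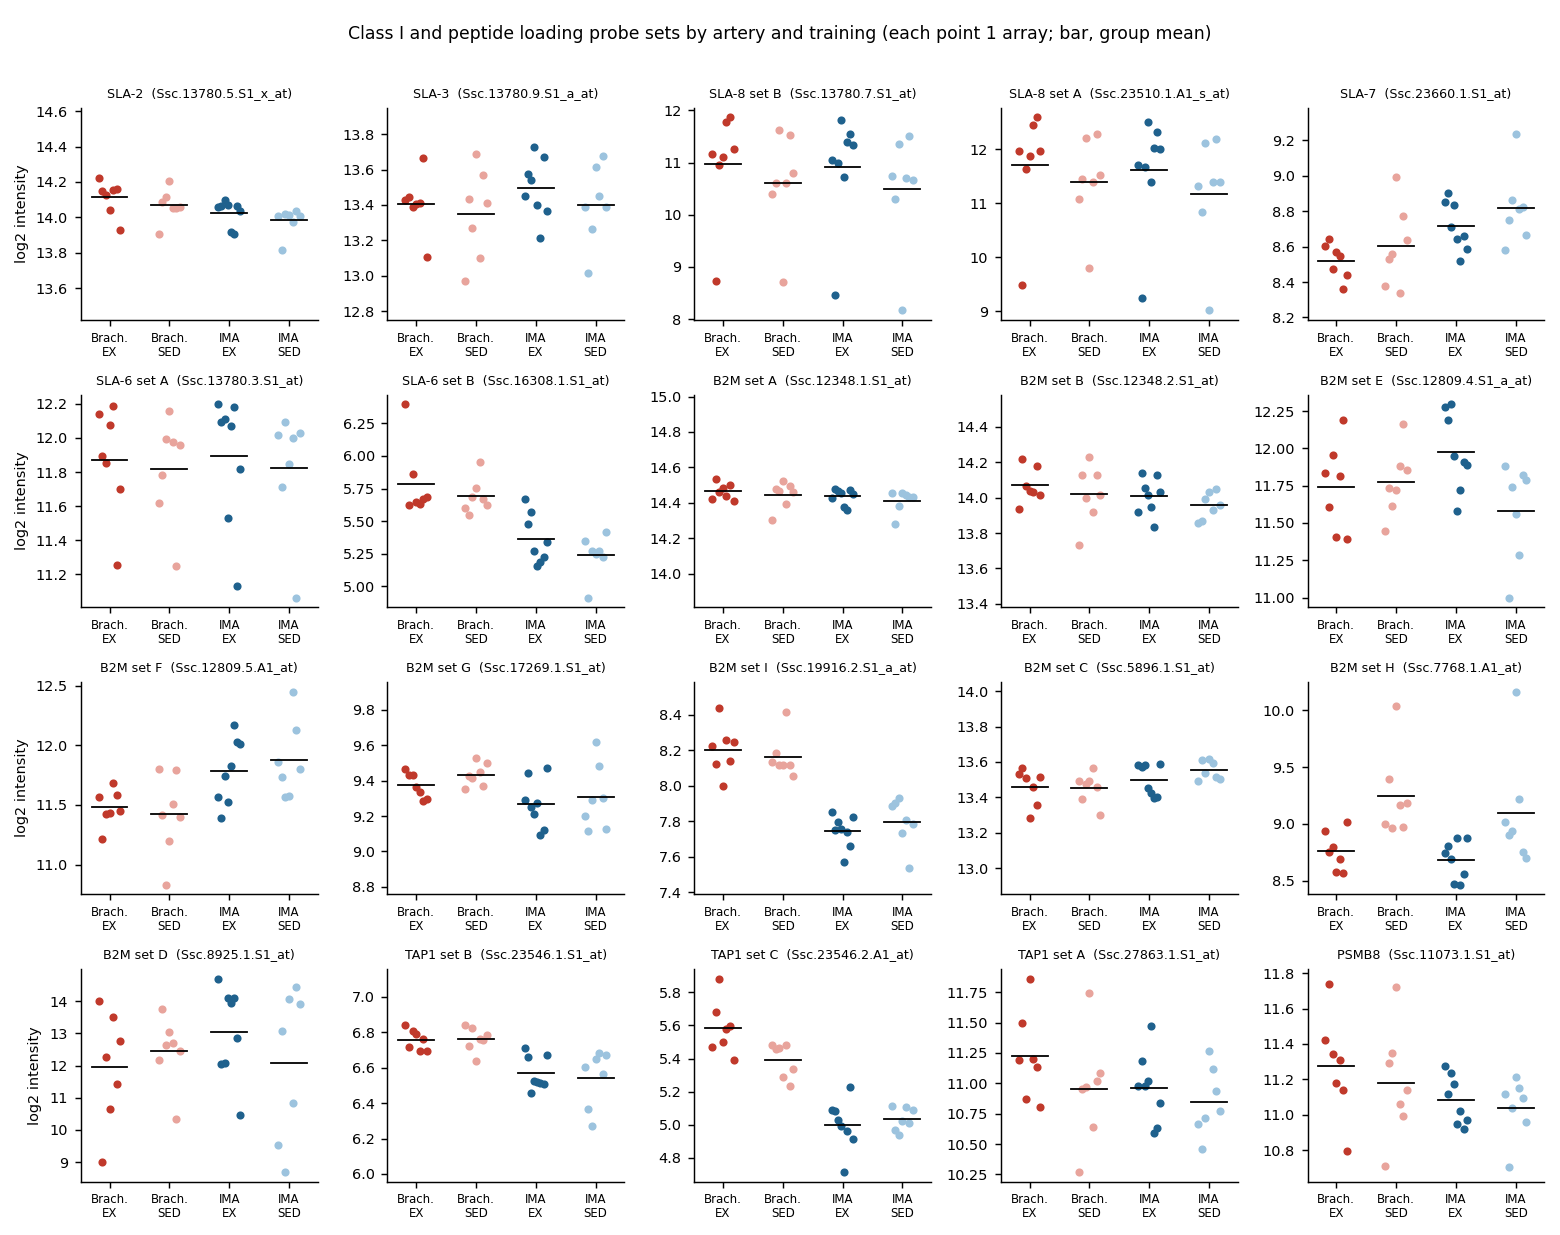
Log2 intensity of the 20 probe sets on every array, by artery and training (Brach., brachial, IMA, internal mammary, EX, exercised, SED, sedentary); each point is 1 array and each bar the group mean, and every panel has its own scale. The exercised and sedentary groups overlap in every panel and in both arteries, and the 2 SLA-8 panels show 1 low array in each group.

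The first question was whether training went with a different level of class I and peptide loading transcripts in either artery. In the brachial artery 0 of the 20 probe sets passed the test (limma, Benjamini-Hochberg adjusted p under 0.05 over all 23999 probe sets), against 1.63% of all probe sets, 1.02% higher and 0.613% lower. In the internal mammary artery 0 of 20 passed as well, against 0.596% of all probe sets, 0.458% higher and 0.138% lower. Averaged over the arteries, 1 passed and fell, a B2M probe set, against 4.68% of all probe sets called, 2.88% higher and 1.8% lower. At an unadjusted p under 0.05, 2 members were found in each artery and 1 in the average. The share of all probe sets at that threshold was not computed, so these counts cannot be read as a trait of the members. The median exercised minus sedentary change of the 20 was 0.04 log2 in the brachial artery, where the median over all probe sets was 0.01. In the internal mammary artery it was 0.04 log2, beside 0.01 over all probe sets. Exercised and sedentary groups overlapped for all 20 probe sets in both arteries. The share of all probe sets whose groups overlap was not computed, so this overlap cannot be read as a trait of the members.

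Among the classical heavy chains, SLA-2 lay between 13.93 and 14.22 (median 14.15) in brachial exercised samples, against 13.90 to 14.21 (median 14.06) in brachial sedentary samples. In the internal mammary artery it lay between 13.91 and 14.10 (median 14.06) in exercised samples, against 13.82 to 14.04 (median 14.01) in sedentary samples. The exercised minus sedentary change averaged over arteries was 0.05 log2 (SE 0.04, 95% interval -0.04 to 0.13, limma adjusted p = 0.617). The groups overlapped almost wholly, and these levels lie near the highest value of the table, 14.79. SLA-3 averaged 13.41 ± 0.16 and 13.35 ± 0.25 in exercised and sedentary brachial samples, and 13.49 ± 0.17 and 13.40 ± 0.22 in exercised and sedentary internal mammary samples (SD), with an averaged change of 0.08 log2 (95% interval -0.09 to 0.25, limma adjusted p = 0.661).

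The nonclassical heavy chains gave no call either. SLA-7 averaged 8.52 ± 0.10 and 8.60 ± 0.23 in exercised and sedentary brachial samples and 8.71 ± 0.14 and 8.82 ± 0.21 in exercised and sedentary internal mammary samples (SD), and its averaged change was -0.09 log2 (95% interval -0.23 to 0.05). The SLA-6 probe sets had averaged changes of 0.05 log2 for SLA-6 set A (95% interval -0.20 to 0.31) and 0.11 log2 for SLA-6 set B (95% interval -0.05 to 0.27). Without the sedentary pig 15_1 the change of SLA-6 set A was -0.06 log2 (limma adjusted p = 0.855), and without the exercised pig 15_2 it was 0.16 log2 (limma adjusted p = 0.505), so its sign depended on 1 pig. The SLA-8 probe sets had averaged changes of 0.41 log2 for SLA-8 set B and 0.39 log2 for SLA-8 set A. Their intervals, -0.34 to 1.17 and -0.33 to 1.11, were wide, and 1 exercised and 1 sedentary pig stood far below the rest. Without the exercised pig 10_5 the changes were 0.77 and 0.74 log2 (limma adjusted p = 0.154 and 0.142), and without the sedentary pig 12_3 they were 0.06 and 0.07 log2 (limma adjusted p = 0.954 and 0.940). A training difference of SLA-8 was not detectable with this number of pigs.

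For the peptide transporter subunit TAP1 the 3 probe sets differed. TAP1 set C had the second smallest p of the members in the brachial artery. It lay between 5.39 and 5.88 (median 5.58) in brachial exercised samples, against 5.23 to 5.48 (median 5.46) in brachial sedentary samples, so that the groups overlapped. Its change there was 0.19 log2 (SE 0.07, limma adjusted p = 0.161), whereas in the internal mammary artery it was -0.03 log2 (SE 0.07). The difference between the arteries' training changes was 0.23 log2 (SE 0.09, limma adjusted p = 1), and this probe set lay in the dimmest tercile of the array. The brighter TAP1 set A averaged 11.22 ± 0.36 and 10.96 ± 0.45 in exercised and sedentary brachial samples and 10.96 ± 0.29 and 10.85 ± 0.28 in exercised and sedentary internal mammary samples (SD), with an averaged change of 0.19 log2 (95% interval -0.08 to 0.46). The remaining one, TAP1 set B, gave 0.01 log2 (95% interval -0.09 to 0.11). PSMB8, the immunoproteasome subunit, averaged 11.28 ± 0.29 and 11.18 ± 0.32 in exercised and sedentary brachial samples and 11.08 ± 0.14 and 11.04 ± 0.17 in exercised and sedentary internal mammary samples (SD), with an averaged change of 0.07 log2 (95% interval -0.13 to 0.27, limma adjusted p = 0.763).

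The probe sets annotated to B2M, the invariant light chain, did not share 1 pattern. The brightest, B2M set A, varied little. It averaged 14.46 ± 0.05 and 14.44 ± 0.07 in exercised and sedentary brachial samples and 14.44 ± 0.04 and 14.41 ± 0.06 in exercised and sedentary internal mammary samples (SD). Its averaged training change was 0.02 log2 (95% interval -0.05 to 0.09), and that of B2M set B was 0.05 log2 (95% interval -0.05 to 0.15). These 2 probe sets correlated at 0.84 over the 29 arrays.

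The call of the average comparison was B2M set H. In the brachial artery it lay between 8.57 and 9.02 (median 8.75) in exercised pigs, against 8.97 to 10.04 (median 9.17) in sedentary pigs. In the internal mammary artery it lay between 8.47 and 8.88 (median 8.72) in exercised pigs, against 8.70 to 10.16 (median 8.94) in sedentary pigs. The groups overlapped in both arteries, and all 7 brachial and all 8 internal mammary values of exercised pigs were below the mean of the sedentary group.

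Its averaged change was -0.45 log2 (SE 0.12, 95% interval -0.70 to -0.20, limma adjusted p = 0.0299), and neither artery alone passed (-0.49 log2, adjusted p = 0.0987 in the brachial artery, and -0.41 log2, adjusted p = 0.224 in the internal mammary artery). Sedentary pig 12_3 held the highest value in both arteries, 10.04 and 10.16, and without it the averaged change was -0.30 log2 with the call kept (limma adjusted p = 0.0220). Leaving out pig 10_5, 11_1, 11_3, 14_3 or 15_2 alone ended the call, at adjusted p from 0.0519 to 0.0645. With pig as a fixed replicate block, that is with pig means over both arteries, the change was -0.43 log2 and its adjusted p was 0.163.

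Group means of leukocyte markers and group medians of RNA quality differed between training groups in part of these samples. The mean of the 4 pan-leukocyte markers was 8.66 (8.52 to 8.79) in brachial exercised, against 8.98 (8.79 to 9.24) in brachial sedentary samples. It was 8.93 (8.67 to 9.24) in internal mammary exercised, against 8.82 (8.30 to 9.03) in internal mammary sedentary samples. Of these 4 markers 1 fell in the brachial artery, and 0 passed in the internal mammary artery or in the average. Of the 7 measured macrophage markers, C1QC, TYROBP and FCER1G fell in the brachial artery and 4 did not pass, and their mean was 8.25 (7.95 to 8.58) in brachial exercised, against 8.90 (8.40 to 9.71) in brachial sedentary samples. In internal mammary samples that mean was 8.86 (8.31 to 9.22) in exercised, against 8.99 (8.54 to 9.61) in sedentary pigs, and none of the 7 passed there or in the average. Of 2 measured B cell markers, averaged over arteries, CD79B rose by 1.06 log2 (limma adjusted p = 0.0110) and BLNK fell by 0.52 log2 (0.0385). With the mean of all pan-leukocyte, macrophage, T, NK and B cell markers as a covariate the averaged change of B2M set H was -0.40 log2 (limma adjusted p = 0.0701). The 28S/18S ratio of ribosomal RNA, a measure of RNA integrity, had medians of 1.4 (1.2 to 1.7) and 1.31 (1.21 to 1.79) in exercised and sedentary brachial samples. In internal mammary samples the medians were 1.31 (1.25 to 1.47) in exercised and 1.18 (1.07 to 1.29) in sedentary pigs. The ranges overlapped in both arteries, and the difference of the ratio was not tested. With the ratio as a covariate the averaged change of B2M set H was -0.42 log2 (limma adjusted p = 0.0567).

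Genes that varied like this probe set were looked for after its values had been seen. Over the 29 arrays the most alike of 6757 compared were GNL3 (Pearson r = 0.94), GPATCH4 (0.94), WDR75 (0.93), ZPR1 (0.91) and NOL6 (0.91), of which GNL3, WDR75 and NOL6 encode nucleolar proteins. Averaged over arteries, GPATCH4 fell by 0.59 log2 (limma adjusted p = 0.0201), GNL3 fell by 0.56 log2 (0.0426) and ZPR1 fell by 0.27 log2 (0.0421). WDR75 and NOL6 gave -0.35 log2 (limma adjusted p = 0.0624) and -0.31 log2 (0.142) and did not pass. Without pig 12_3 these r values were 0.81, 0.82, 0.78, 0.77 and 0.72 over 27 arrays. With B2M set A, the brightest B2M probe set, B2M set H correlated at only 0.13. These correlations are descriptions, since the arrays share pigs and groups.

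A second one, B2M set D, ranged from 9.00 to 13.99 in brachial exercised, from 10.35 to 13.76 in brachial sedentary, from 10.46 to 14.69 in internal mammary exercised and from 8.70 to 14.43 in internal mammary sedentary samples. These spreads within groups were the widest of the 20. The genes most like it were ALAS2 (r = 0.86), ARG1 (0.82), AHSP (0.79) and HBM (0.76), of which ALAS2, AHSP and HBM serve haem and haemoglobin in red cell precursors. Its averaged training change was 0.25 log2 (95% interval -1.15 to 1.65, limma adjusted p = 0.896). The patterns of B2M set H and B2M set D went against a single B2M level. Whether either detects B2M could not be checked, since probe sequences were not used here, and the single training call is therefore a fall of B2M set H as a probe set.

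**Figure D2:**
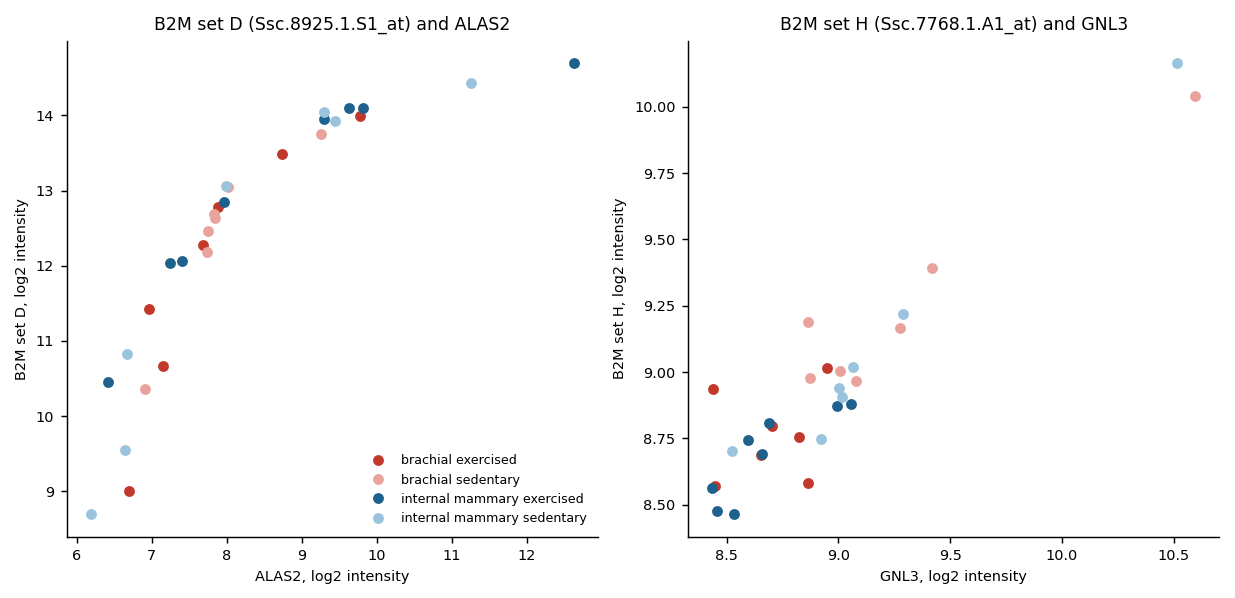
B2M set D and B2M set H (vertical axes) against ALAS2 and GNL3 (horizontal axes), log2 intensity, each point 1 of the 29 arrays, coloured by artery and training. Both B2M probe sets are higher on arrays where the other gene is higher (r = 0.86 and 0.94), and the pair of points at upper right in the GNL3 panel are the 2 arrays of pig 12_3.

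Of the remaining B2M probe sets, B2M set E had the smallest p of the members in the internal mammary artery. It lay between 11.58 and 12.29 (median 11.93) in internal mammary exercised samples, against 11.00 to 11.88 (median 11.74) in internal mammary sedentary samples, and the groups overlapped. The change was 0.39 log2 (SE 0.14, limma adjusted p = 0.201), beside -0.03 log2 (SE 0.15) in the brachial artery, where exercised and sedentary samples averaged 11.74 ± 0.29 and 11.77 ± 0.23 (SD). The difference of these changes was -0.42 log2 (SE 0.18, limma adjusted p = 1). For the interaction as a whole, 0 of the 20 members and 0% of all probe sets passed. An unadjusted p under 0.05 was found for 2 members, and the share of all probe sets at that threshold was not computed. The other 4 B2M probe sets (C, F, G and I) had averaged changes from -0.05 to -0.01 log2.

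**Figure D3:**
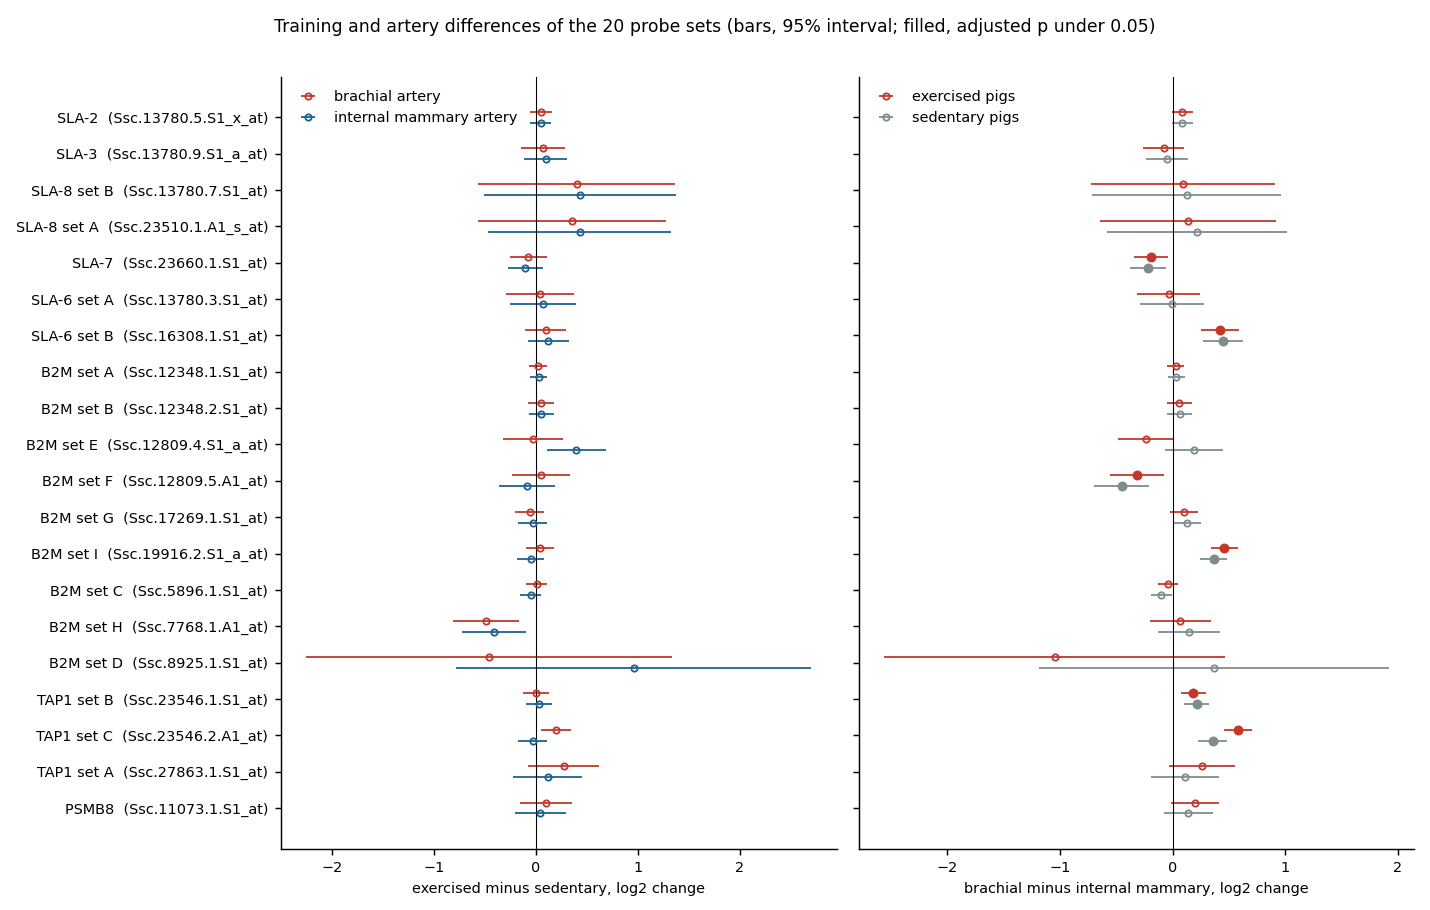
Log2 changes of the 20 probe sets with 95% intervals (horizontal axes), exercised minus sedentary in each artery (left) and brachial minus internal mammary in each training group (right); filled points passed at an adjusted p under 0.05. No point is filled on the left, and 6 are filled for each training group on the right.

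The second question was whether the arteries differed. Pig entered the fit as a random effect with 1 correlation, 0.255, for all probe sets, so that a probe set whose arteries were more alike within pigs kept spread between pigs in its interval. A fit within pigs is given where it changed a call. Over all pigs 8 of the 20 probe sets passed, 6 higher and 2 lower in the brachial artery, against 54.3% of all probe sets called, 31.8% higher and 22.5% lower. In exercised pigs 6 passed (4 higher, 2 lower), against 41.2% of all probe sets, 24.2% higher and 17% lower. In sedentary pigs 6 passed (4 higher, 2 lower), against 34.8% of all probe sets, 20.5% higher and 14.2% lower. The members' shares were below those of the array as a whole in each of these comparisons, and that difference was not tested. Of the 7 macrophage markers C1QC, TYROBP, FCER1G and AIF1 fell in the brachial artery over all pigs, as did both B cell markers (CD79B by 0.99 and BLNK by 0.78 log2). Other leukocyte markers went both ways. Of the 8 measured T and NK cell markers 4 rose, 1 fell and 3 did not pass. Of the 4 pan-leukocyte markers 1 rose, 1 fell and 2 did not pass. The median brachial minus internal mammary change of the 20 was 0.10 log2, beside 0.03 over all probe sets.

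TAP1 gave the largest rise among the 8 members called over all pigs. TAP1 set C lay between 5.39 and 5.88 (median 5.58) in brachial exercised samples, against 4.72 to 5.23 (median 5.01) in internal mammary exercised samples. In sedentary pigs it lay between 5.23 and 5.48 (median 5.46) in the brachial artery, against 4.94 to 5.11 (median 5.02) in the internal mammary artery. The arteries did not overlap within either training group, and the brachial value was the higher in 14 of 14 pigs. The change over all pigs was 0.47 log2 (SE 0.04, limma adjusted p = 4.88e-10), a ratio of 1.38.

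TAP1 set B averaged 6.76 ± 0.06 and 6.57 ± 0.10 in brachial and internal mammary arteries of exercised pigs, and 6.76 ± 0.07 and 6.54 ± 0.16 in those of sedentary pigs (SD). It rose by 0.20 log2 (SE 0.04, limma adjusted p = 6.26e-05) and was higher in the brachial artery in 13 of 14 pigs. The bright TAP1 set A was higher in 10 of 14 pigs, with a change of 0.19 log2 (SE 0.10, limma adjusted p = 0.130) that did not pass. PSMB8 was likewise higher in 10 of 14 pigs, with a change of 0.17 log2 (SE 0.07, limma adjusted p = 0.0573). After adjustment for smooth muscle markers both passed, at 0.35 log2 for this TAP1 probe set (adjusted p = 0.000575) and 0.24 log2 for PSMB8 (adjusted p = 0.00664). After adjustment for leukocyte markers they were 0.34 log2 (adjusted p = 0.00843) and 0.27 log2 (adjusted p = 0.00547). Beyond these fits the part of cell makeup in the arteries' difference was not tested.

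Among the heavy chains, SLA-6 set B rose and SLA-7 fell. SLA-6 set B lay between 5.63 and 6.39 (median 5.67) in brachial exercised samples, against 5.16 to 5.67 (median 5.31) in internal mammary exercised samples. In sedentary pigs it lay between 5.55 and 5.95 (median 5.67) in the brachial artery, against 4.91 to 5.42 (median 5.27) in the internal mammary artery, with no overlap. It was higher in the brachial artery in 14 of 14 pigs, by 0.44 log2 (SE 0.06, limma adjusted p = 7.43e-07). The bright SLA-6 set A gave -0.02 log2 (95% interval -0.22 to 0.18), and -0.03 and -0.02 log2 without pig 15_1 and without pig 15_2, so the probe sets of this gene disagreed.

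SLA-7 lay between 8.36 and 8.64 (median 8.55) in brachial exercised samples, against 8.52 to 8.90 (median 8.68) in internal mammary exercised samples. In sedentary pigs it lay between 8.34 and 9.00 (median 8.56) in the brachial artery, against 8.58 to 9.23 (median 8.81) in the internal mammary artery. The arteries overlapped, yet the brachial value was the lower in 13 of 14 pigs, and the change was -0.20 log2 (SE 0.05, limma adjusted p = 0.00195). After adjustment for leukocyte markers it was -0.12 log2 and did not pass (adjusted p = 0.0582). In the last 7 pigs collected it was -0.15 log2 and did not pass either (adjusted p = 0.0751), while in the first 8 it passed (-0.25 log2, adjusted p = 0.0442). SLA-2 rose by 0.09 log2 (SE 0.03, limma adjusted p = 0.0235), with the brachial value higher in 12 of 14 pigs. It lost the call in the first 8 pigs collected (0.10 log2, adjusted p = 0.144) and in the last 7 (0.07 log2, adjusted p = 0.272), and with pig as a fixed replicate block (0.09 log2, adjusted p = 0.0546). SLA-3 gave -0.06 log2 (95% interval -0.19 to 0.07), with no call.

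SLA-8 set B and set A gave 0.11 and 0.17 log2, with intervals from -0.48 to 0.70 and from -0.38 to 0.73 that include the spread between pigs. The brachial value was the higher in 10 of 14 pigs for set B and in 11 of 14 for set A, with median differences within pigs of 0.21 and 0.19 log2. With pig as a fixed replicate block, both passed, at 0.16 log2 for set B (limma adjusted p = 0.0497) and 0.22 log2 for set A (limma adjusted p = 0.0192). In the random effect fit, the changes of set B and set A were 0.12 and 0.19 log2 without pig 10_5 and 0.07 and 0.12 log2 without pig 12_3.

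B2M probe sets moved in both directions between the arteries. B2M set I lay between 8.00 and 8.44 (median 8.22) in brachial exercised samples, against 7.57 to 7.85 (median 7.75) in internal mammary exercised samples. In sedentary pigs it lay between 8.05 and 8.42 (median 8.12) in the brachial artery, against 7.53 to 7.93 (median 7.80) in the internal mammary artery. It rose by 0.41 log2 (SE 0.04, limma adjusted p = 2.03e-09), was higher in the brachial artery in 14 of 14 pigs, and did not overlap. B2M set F averaged 11.48 ± 0.15 and 11.78 ± 0.28 in brachial and internal mammary arteries of exercised pigs, and 11.42 ± 0.34 and 11.87 ± 0.32 in those of sedentary pigs (SD). It fell by 0.38 log2 (SE 0.08, limma adjusted p = 0.000329) and was lower in the brachial artery in 14 of 14 pigs, by as little as 0.001 log2 in 1 of them. In the first 8 pigs collected it did not pass (-0.26 log2, adjusted p = 0.0684), while in the last 7 it did (-0.52 log2, adjusted p = 0.000590). B2M set G rose by 0.12 log2 (SE 0.04, limma adjusted p = 0.0230) and was higher in 10 of 14 pigs, but lost the call in the first 8 pigs collected (adjusted p = 0.139) and in the last 7 (adjusted p = 0.213). The brightest B2M probe sets, B2M set A and B2M set B, gave 0.03 log2 (95% interval -0.02 to 0.09) and 0.06 log2 (95% interval -0.01 to 0.14) and did not pass.

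Brightness and artery were related over the whole array. The probe sets were divided by mean log2 intensity into terciles. In the dimmest the median brachial minus internal mammary change was 0.11 log2 and 44.9% were called higher. In the middle tercile it was 0.01 log2 with 31.3% called higher, and in the brightest -0.04 log2 with 19.1% called higher and 30.3% called lower. Of the 6 members called higher, TAP1 set C and SLA-6 set B lay in the dimmest tercile, and TAP1 set B and B2M set I lay in the middle one. All 4 members in these terciles were called higher, while 2 of the 16 members in the brightest were called higher and 2 lower. The part of signal level in these calls was not tested.

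For several heavy chains the same pigs were low or high in both arteries. The 2 SLA-8 probe sets, which correlated at 0.996 over the 29 arrays and at 0.989 over the 25 arrays of other pigs than 10_5 and 12_3, had very low values in pig 10_5, an exercised pig, and pig 12_3, a sedentary pig. By SLA-8 set B the brachial and internal mammary values were 8.73 and 8.46 in pig 10_5 and 8.72 and 8.16 in pig 12_3. The other pigs lay between 10.40 and 11.87 in the brachial artery and between 10.31 and 11.82 in the internal mammary artery. Both pigs were thus low in both arteries, and the nearest other pig was at least 3.19-fold away in brachial and 3.61-fold away in internal mammary samples.

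SLA-8 set A had 9.49 and 9.25 in the brachial and internal mammary arteries of pig 10_5 and 9.80 and 9.01 in those of pig 12_3. The other pigs lay between 11.08 and 12.60 in the brachial artery and between 10.84 and 12.50 in the internal mammary artery. Because these pigs form clusters of their own, no correlation over all 14 pigs is given. Among the other 12 pigs, brachial and internal mammary values, each taken as the deviation from its group mean, still correlated at r = 0.87 for SLA-8 set B and 0.83 for SLA-8 set A. The differences among pigs within training groups passed limma's moderated F test over all probe sets (adjusted p = 1.05e-07 and 1.10e-06), a test chosen after the data had been seen.

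**Figure D4:**
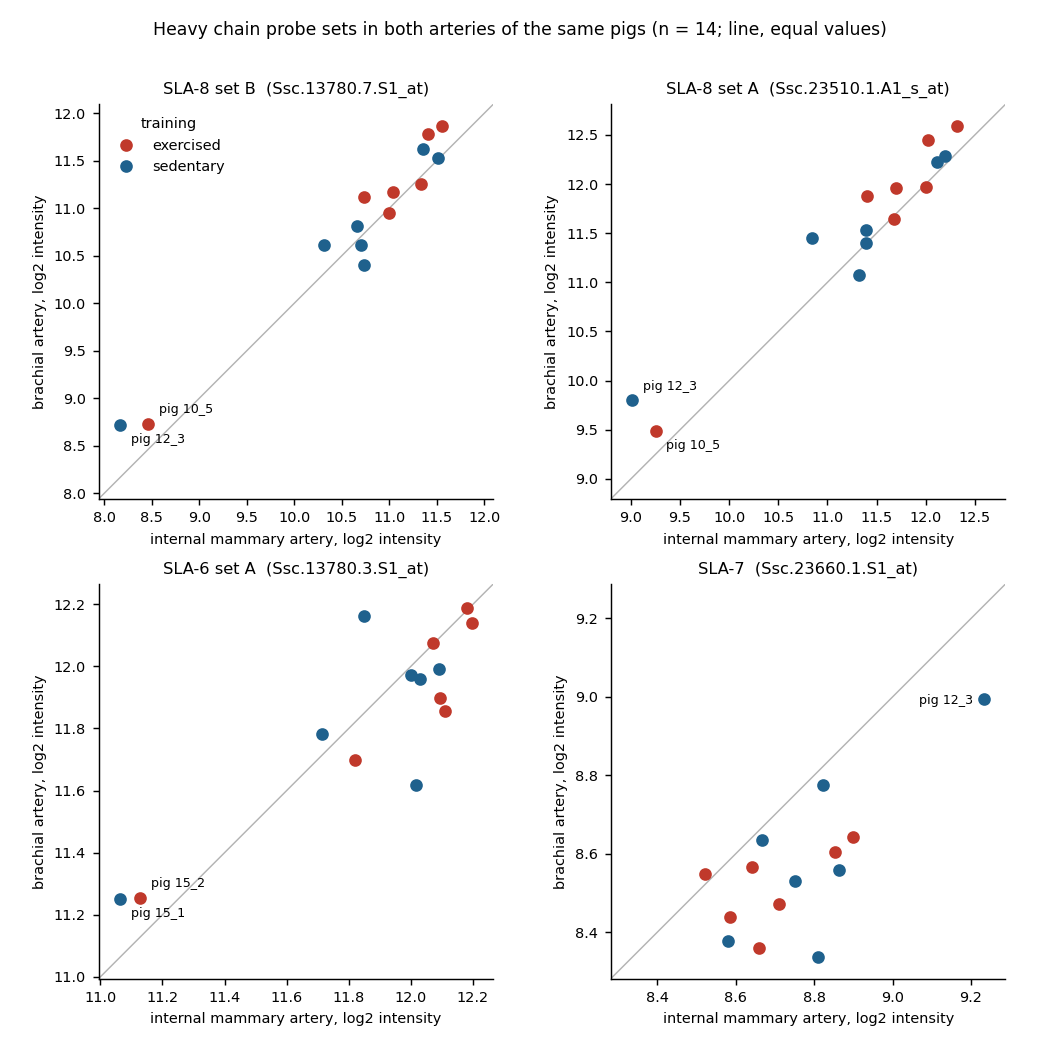
Log2 intensity in the brachial artery (vertical) against the internal mammary artery (horizontal) of the same pig for 4 heavy chain probe sets, each point 1 of 14 pigs, with the line of equal values. Pigs 10_5 and 12_3 are low in both arteries for both SLA-8 probe sets, pigs 15_1 and 15_2 for SLA-6, and pig 12_3 is high in both for SLA-7.

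SLA-6 set other pigs apart. By SLA-6 set A, the brachial and internal mammary values were 11.25 and 11.13 in exercised pig 15_2 and 11.25 and 11.06 in sedentary pig 15_1. The other pigs lay between 11.62 and 12.19 in the brachial artery and between 11.53 and 12.20 in the internal mammary artery. These gaps were smaller than those of SLA-8, from 1.29-fold to 1.38-fold. The pig effect passed (limma F, adjusted p = 0.00112), and among the other 12 pigs the correlation between arteries was 0.43, so the likeness rests largely on these pigs.

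SLA-7 correlated at r = 0.70 between the arteries of 14 pigs (permutation p = 0.00653, Spearman's rho = 0.56, permutation p = 0.0405), and at 0.48 without the 2 pigs farthest from the median. Its pig effect passed (limma F, adjusted p = 0.0336). Of the B2M probe sets, B2M set H gave r = 0.80 (permutation p = 0.00713, rho = 0.49, permutation p = 0.0782), which was 0.20 without pigs 12_3 and 13_2 and so rests on them. B2M set F gave r = 0.61 (permutation p = 0.0192, rho = 0.71, permutation p = 0.00635) and 0.65 without the 2 farthest pigs. Both passed the F test (adjusted p = 0.00432 and 0.0385).

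Over the 20 members, 20 such relations were computed. The pig effect was called for 6 of 20, against 13.3% of all probe sets, and r was 0.8 or above for 4 of 20, against 4.03% of all probe sets. These 4 were SLA-6 set A, B2M set H and the 2 SLA-8 probe sets, which are nearly 1 measurement (r = 0.996 with each other). Without the 2 pigs farthest from the median, SLA-6 set A and B2M set H gave 0.43 and 0.20. The share of 4 in 20 therefore rests on few pigs and on members that are not independent. The median r between arteries was 0.48 for the members and 0.27 for all probe sets. Classical SLA-2 gave r = 0.07 (permutation p = 0.821, rho = 0.25, permutation p = 0.381) and the brightest B2M set A gave -0.06 (permutation p = 0.825, rho = 0.20, permutation p = 0.492), and neither passed the F test. The pigs low in SLA-8 and those low in SLA-6 were different animals, and each pair held 1 exercised and 1 sedentary pig. When arrays were matched on the 7 heavy chain probe sets alone, the nearest internal mammary array of a brachial array was the same pig's in 6 of 14 pigs, and also in 6 of 14 with all 23999 probe sets.

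The members also differed in how they moved with each other over the 29 arrays. SLA-2 correlated at 0.82 with PSMB8 and at 0.76 with B2M set A, and SLA-3 at 0.75 with that B2M probe set. TAP1 set A correlated at 0.67 with PSMB8 and 0.65 with B2M set A. A second group joined probe sets of lower intensity: TAP1 set C correlated at 0.85 with B2M set I and 0.71 with both TAP1 set B and SLA-6 set B. Each probe set of this second group was called higher in the brachial artery over all pigs, so their likeness includes the arteries' difference. SLA-2, of the first group, and B2M set G were called higher too. The SLA-8 pair stood outside both groups, at -0.03 and 0.03 with SLA-2. Arrays of 1 pig and of 1 group are not independent, and the correlations are descriptions.

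**Figure D5:**
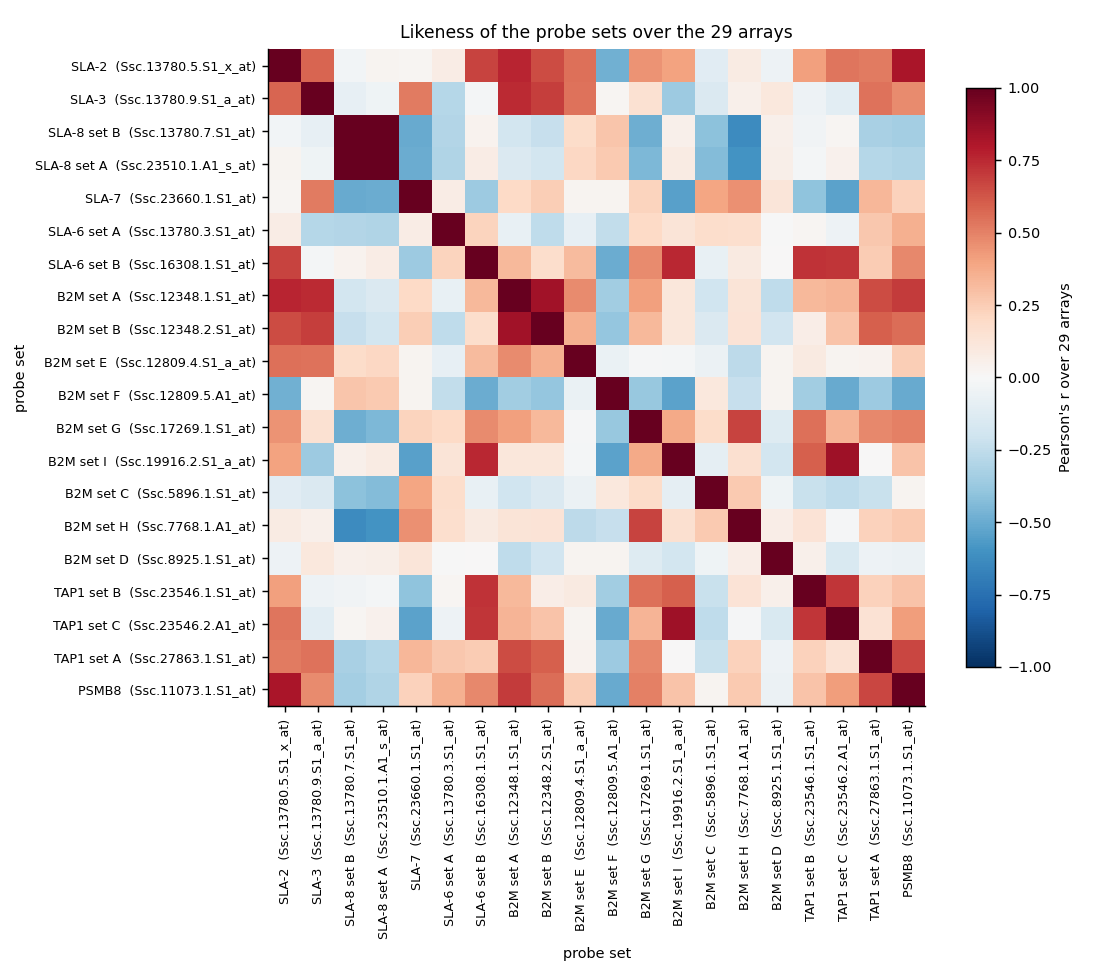
Pearson's r over the 29 arrays between each pair of the 20 probe sets (colour scale from -1 to 1). The bright SLA-2, SLA-3, B2M set A and set B, TAP1 set A and PSMB8 probe sets are alike, and the SLA-8 pair and B2M set D have few or no high values with other members.

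Among genes outside the set, those most like TAP1 and PSMB8 by the mean of their 4 probe sets were PRPS1 (r = 0.86), TTLL12 (0.85), PLLP (0.85), TAGLN2 (0.85) and LHPP (0.83). Those most like the mean heavy chain level were ARHGEF2 (0.73), NFIA (0.72), ENPP2 (0.67), CTDSPL (0.66) and FOLR1 (0.63), and without pigs 10_5 and 12_3 these were 0.62, 0.45, 0.59, 0.17 and 0.62. For the mean of all 20 probe sets they were UCP2 (0.62), DLL4 (0.60), ALAS2 (0.59), ARG1 (0.59) and LOC100512977 (0.58), and that mean followed B2M set D most closely (0.64). Among the genes most like single members, a comparison added after their values were seen, SLA-2 had TIE1 (0.81), an endothelial receptor, and TAPBP (0.79), which encodes tapasin. TAP1 set A had CIITA (0.86), the master regulator of class II genes, and SLA-3 had SLA-DRB1 (0.78), a class II chain.

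Other genes of the class I pathway gave no training call. Of 37 listed partners 18 were measured, and 0 rose and 0 fell in the brachial artery, in the internal mammary artery and in their average. Over all probe sets 1.63%, 0.596% and 4.68% were called in these comparisons, and the difference from these low shares was not tested. The smallest p in the average belonged to PSME3, a proteasome activator of the nucleus, at -0.26 log2 (limma adjusted p = 0.0722), followed by PDIA3, a disulfide isomerase of the loading complex, at 0.14 log2 (adjusted p = 0.197), and CIITA at 0.30 log2 (adjusted p = 0.204). Between arteries, 5 of the 18 rose and 2 fell in the brachial artery, and 11 did not pass, against 31.8% of all probe sets called higher and 22.5% called lower. Calreticulin (CALR), a chaperone of the loading complex, averaged 11.82 ± 0.19 and 11.47 ± 0.30 in brachial and internal mammary arteries of exercised pigs, and 11.90 ± 0.20 and 11.39 ± 0.30 in those of sedentary pigs (SD), and rose by 0.44 log2 (limma adjusted p = 1.43e-05).

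Its membrane-bound relative calnexin (CANX), which holds newly made heavy chains, fell by 0.22 log2 (adjusted p = 6.58e-06). IRF1, an interferon-regulated activator of class I genes, rose by 0.35 log2 (adjusted p = 0.0472). The standard proteasome subunits PSMB5 and PSMB6 rose by 0.16 and 0.19 log2 (adjusted p = 0.00398 and 0.00573), and PSME3 fell by 0.31 log2 (adjusted p = 0.000237). The T cell coreceptor chain CD8B rose by 0.24 log2 (adjusted p = 7.69e-05), at levels of 5.87 ± 0.12 and 5.71 ± 0.07 in brachial and internal mammary arteries of exercised pigs and 5.90 ± 0.21 and 5.57 ± 0.11 in those of sedentary pigs (SD), which lie in the dimmest tercile. The mean of the 8 measured T and NK cell markers was 5.73 ± 0.09 and 5.79 ± 0.24 in brachial and internal mammary arteries of exercised pigs and 5.88 ± 0.25 and 5.64 ± 0.18 in those of sedentary pigs (SD), and its part in the artery difference was not tested.

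Lists of related immune genes were set beside the class I members. Of 9 class II genes 8 were measured and all 8 had a positive averaged training change, of which SLA-DMB (0.43 log2, limma adjusted p = 0.0120), SLA-DMA (0.34 log2, 0.0292) and SLA-DOA (0.44 log2, 0.0458) rose and 5 did not pass, against 2.88% of all probe sets called higher in this comparison. SLA-DMA and SLA-DMB form the exchange factor that loads class II molecules, and SLA-DOA belongs to its inhibitor. Of 22 interferon-stimulated genes 17 were measured and all 17 were positive. PSMB10 is both on this list and among the class I partners above. IFI44L (0.50 log2, adjusted p = 0.00357), MX1 (0.53 log2, 0.00780), IFIT3 (0.62 log2, 0.0157), IRF9 (0.41 log2, 0.0202) and USP18 (0.66 log2, 0.0404) rose, and 12 did not pass, against the same 2.88%. The median averaged change was 0.42 log2 for the interferon list, 0.21 log2 for class II and 0.05 log2 for the 20 class I and loading members. The list medians are over genes, each by its brightest probe set, whereas the member median is over probe sets, of which 9 are annotated to B2M. Whether these lists differ was not tested.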

How the data were processed

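Single-colour porcine arrays of 29 samples from 15 pigs were analysed. The authors deposited 1 table of log2 probe set intensities, and the submitters' processing notes name affy without a version. The summary method, background correction, normalization and genome build are not given in the sources used here, signal over background could not be measured, and the number of arrays limits the precision. Of 24123 probe sets, 124 controls were left out and 23999 tested, of which 10069 had 1 symbol in the platform annotation, 198 several and 13732 none. All 20 members matched the RefSeq gene table for Sscrofa11.1 by Entrez identifier, and it was used for names and neighbours only. Titles gave the groups. For 8 exercised samples from the internal mammary artery the source name says sedentary whereas titles and tags say exercised, and titles were followed.

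Linear models with a mean for each of 4 groups and a random effect of pig, whose estimated correlation was 0.255, were fitted with limma 3.58.1 under R 4.3.3. The arteries of a pig are paired by its label identifier. Adjusted p-values are Benjamini-Hochberg over the 23999 probe sets, with a threshold of 0.05. Pigs were compared within training groups by limma's moderated F over the 14 pigs with both arteries, a test added after the data had been seen. Correlations between arteries used values minus group means and 100000 permutations, two-sided. Separate cultures or litters are not stated, and pigs were taken as independent. Training and artery p-values both rest on the spread of arrays within groups, with the arteries of a pig tied by the shared correlation of 0.255. Where the arteries of a pig are more alike than that, the SE of an averaged training change can be too small. Only the fixed block fit of the averaged change rests on the spread between pig means. The F test sets the spread between pigs against that within pigs. The steps were tested on simulated data. Alternatives were no block, pig as a fixed block, a filter on dim probe sets, other scalings, another variance prior, array weights, RNA quality, collection time, marker means as covariates, and leaving out each pig.

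The members and lists were chosen with earlier results of these data known. By rule, values are given for members called in a comparison, or the 2 with the smallest p where none was called. From each list the passing genes and up to 4 others by smallest p could be named, and the 5 genes most alike with the members' means. Genes most like single members were added later. Each listed gene was represented by its probe set of highest mean. Tables were read with the package data.table (1.17.8) and jsonlite (2.0.0), and figures drawn with matplotlib 3.10.9 under Python 3.11.15.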

Additional observations from a re-analysis of the deposited data

Results flagged for a closer look

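In 15 of 80 member groups (20 probe sets in 4 groups) 1 array stood apart from the rest of its group by Dixon's criterion. Chance alone meets it in about 1 in 20 independent groups. These groups are not independent, since the same pigs recur across arteries and probe sets and the SLA-8 probe sets are nearly alike. The share over all probe sets was not computed, so the count cannot be read as a trait of the members. SLA-8 set B did so in all 4 groups, with exercised pig 10_5 lowest at 8.73 (brachial) and 8.46 (internal mammary), and sedentary pig 12_3 lowest at 8.72 and 8.16. SLA-8 set A had pig 10_5 lowest at 9.49 (brachial) and 9.25 (internal mammary), and pig 12_3 lowest at 9.01 in the internal mammary artery. SLA-6 set A had sedentary pig 15_1 lowest at 11.06 in the internal mammary artery. SLA-6 set B had exercised pig 10_1 highest at 6.39 in the brachial artery and sedentary pig 11_1 lowest at 4.91 in the internal mammary artery.

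Sedentary pig 11_1 was also lowest in its internal mammary group for SLA-2, at 13.82, and for B2M set A, at 14.28. B2M set H had sedentary pig 12_3 highest in both arteries, at 10.04 (brachial) and 10.16 (internal mammary). B2M set I had sedentary pig 13_2 highest in the brachial artery, at 8.42.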

How the results depend on the processing

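The counts of members called in the brachial artery, in the internal mammary artery and in the interaction were 0 under all 29 alternatives, of which 15 left out 1 pig each. Of the 140 changes of single members, 112 stayed on the same side of the threshold under all of these. The single call of the average over arteries, B2M set H, kept its direction under every alternative, with changes from -0.56 to -0.30 log2 and adjusted p from 0.0176 to 0.419. The count went to 0 with pig as a fixed replicate block, after adjustment for the 28S/18S ratio, after adjustment for leukocyte markers, in the first 8 pigs alone and in the last 7 alone. Leaving out 1 pig gave 0 to 1, and the pigs that ended the call were 10_5, 11_1, 11_3, 14_3 and 15_2. The other block results, with pig as a fixed replicate block or with no block, changed no count by over 1.5 times. Over all pigs the fixed block ended the call of SLA-2 and called both SLA-8 probe sets, and no other call between arteries changed under it. Between arteries, the exercised count of 6 was 3 in the first 8 pigs, where 5360 of the 23999 probe sets were called instead of 9887. The sedentary count of 6 was 3 in the last 7 and 10 after adjustment for smooth muscle markers. Over all probe sets the sedentary calls were 8340 as reported, 3283 in the last 7 and 10076 after that adjustment. The count of 8 over all pigs was 5 in the first 8, 5 in the last 7 and 13 after that adjustment. Over all probe sets these calls were 13026 as reported and 9012, 8596 and 13798 in the same 3 fits. The fits of the first 8 and of the last 7 hold fewer pigs, and the part of this in their counts was not tested. The cause of the rise with this adjustment was not tested. SLA-7 in exercised pigs, brachial minus internal mammary, reversed to 0.00933 log2 after adjustment for leukocyte markers (adjusted p = 0.945), and the cause was not tested. In exercised pigs SLA-7 lost its call between arteries under 15 of 29 alternatives beside that one, and B2M set F under 9. The count of members with r of 0.8 or above between arteries was 4, and 2 without the 2 pigs farthest from the median. The pig effect count of 6 was 3 to 7 when 1 pig was left out, with 3 without pig 12_3. The planned search of promoters for motifs was not run.

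With 7 or 8 arrays a group, the SLA-8 changes had intervals over 1 log2 unit wide, and the brightest B2M and SLA-2 values lie near the table's highest value. Without scanner files, signal over background is unknown for the dim TAP1 and SLA-6 probe sets.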
